A study of Sus scrofa with 37 samples.

Results

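The transcripts described here encode the subunits of nuclear factor kappa B (NF-kB), the proteins that hold it back, and TANK, an adaptor of the kinases above it. Members were all probe sets that the array annotation assigns to TANK, NFKB1, NFKB2, REL, RELA, RELB, BCL3, NFKBIA, NFKBIZ and TNFAIP3. No probe set of the annotation used here carries the symbol RELA, so 9 of the 10 genes were measured, by 21 of the 47845 probe sets of the array. They are 5 probe sets for TANK, 1 each for NFKB1, REL, RELB and BCL3, 4 each for NFKB2 and TNFAIP3, and 2 each for NFKBIA and NFKBIZ. Expression was measured in peripheral blood mononuclear cells (PBMC) of growing Landrace pigs of both sexes, the blood fraction that holds lymphocytes and monocytes. After weaning, pigs received a wheat and barley based diet with high (H), low (L) or medium (M) phosphorus, M being the adequate supply. Arrays at 63 days post natum (dpn) came from 7 H, 6 L and 5 M pigs. The 19 arrays at 28 dpn, from 7 H, 6 L and 6 M pigs before the diets began, served together as the reference samples (R). Both ages were available for 18 of the 19 pigs. The pooling of all 28 dpn arrays into R follows the study's methods. H held 4 female and 3 male pigs, L 3 and 3, and M at 63 dpn 3 and 2. R differs from the other groups in age as well as in diet, so in any comparison with R the effects of diet and age cannot be told apart, whereas H, L and M at 63 dpn share their age. The study asked how transcripts of immune cells respond to divergent phosphorus supply.

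NF-kB is a family of transcription factors built as dimers of RELA, REL, RELB and the processed products of NFKB1 and NFKB2. In resting cells the dimers are kept in the cytoplasm by inhibitors such as NFKBIA, which the IKK kinases mark for destruction after a stimulus. Freed dimers switch on cytokine and survival genes and also their own inhibitors NFKBIA and TNFAIP3, which ends the response. TANK binds TRAF proteins and the kinases TBK1 and IKBKE, and in mice its loss enhances signaling of Toll-like and B cell receptors to NF-kB.

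The values are on the log2 scale, where a difference of 1 is a doubling, and levels of different probe sets are not compared with each other. Array medians lay between 5.25 and 5.42. The H arrays of pigs 12 and 11 at 63 dpn scored highest of the 37 arrays on the leading principal component (13.8% of the variance). Calls named below in H against R and within H pigs are also given without them. Of the 21 members, 11 passed the study's filter (SD above 0.23 and mean above 2.5 over all arrays), as did 28086 probe sets of the whole array. They represent TANK, NFKB2, BCL3, NFKBIA, NFKBIZ and TNFAIP3, whereas the single probe sets of NFKB1, REL and RELB fell short of the SD limit and were tested only in a fit without the filter. A probe set was called when its limma P value and its q value, the P value adjusted over all probe sets tested, were both 0.05 or less.

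TANK, the adaptor, was the member that was called between H and R. Its probe set 000368 lay between 7.25 and 8.73 in the 7 H samples, with a median of 7.62, against 6.23 to 7.55 with a median of 7.22 in the 19 R samples. All 7 H samples lay above the mean of R and 5 of them above every R sample. In L the values ran between 6.60 and 7.39 with a median of 7.18, and the M pigs had 6.85, 6.69, 7.58, 7.24 and 7.28. The L and M values lay within the range of R, apart from 1 M pig at 7.58, just above it. The increase of H over R was 0.61 on the log2 scale (SE 0.14, q = 0.0246), a fold of 1.53. This was the single call among the 11 tested members, where 2.09% of all tested probe sets were called, and the probe set stood at rank 104 of 28086 by P value. The differences of L and M from R, which share the R arrays with this comparison, were -0.07 (SE 0.15, q = 0.819) and -0.07 (SE 0.16, q = 0.999). No member was called in L against R or in M against R, where 0.0249% and 0.0178% of the tested probe sets were called.

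The call of TANK in H against R rested on 2 pigs. Pigs 12 and 11 held the first and the third highest H values, 8.73 and 7.95, with pig 18 at 8.03 between them. Leaving out pig 12 at 63 dpn gave a difference of 0.47 (q = 0.139), leaving out pig 11 gave 0.56 (q = 0.0606), and leaving out both gave 0.39 (q = 0.246). With array weights, which count deviating arrays less, it was 0.41 (q = 0.0998).

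Within H pigs, TANK rose between both ages in every animal. At 63 dpn all 7 H values lay above all 7 H values at 28 dpn, which ran between 6.23 and 7.24 with a median of 7.04. How many of all probe sets separated both ages of H in this way was not counted. The changes of the single pigs were between 0.30 and 1.49, with a mean of 0.85 ± 0.49 (SD, n = 7), a fold of 1.80. The fit gave an SE of 0.16 and q = 0.00358. It compares group means and does not pair the arrays of a pig. This holds for every test of a change with age, unless a replicate block is named. In contrast, TANK was lower at 63 dpn in 6 of 6 L pigs, with changes between -0.91 and -0.03 and a mean of -0.22 (SE 0.18, q = 0.953). It was higher in 2 and lower in 3 of the 5 M pigs, and the fitted difference, which includes pig 8 at 28 dpn, was -0.20 (SE 0.19, q = 0.987). The call in H held in each of the 37 fits that left out 1 array and in all 13 other alternatives, without pigs 11 and 12 included, with q between 0.00262 and 0.0362. The background was wide in this comparison, since 12.5% of all tested probe sets were called in H against its own 28 dpn, and no probe set in L or M (0%).

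Whether the change with age differed between diets was tested directly. The change of TANK in H exceeded the mean change of L and M by 1.05 (SE 0.21), at rank 3 of 28086 by P value. Its q value of 0.0509 missed the threshold, at which 0% of the probe sets were called, and 5651 had a P value of 0.05 or less. In the fit without the filter it was called with q = 0.0489, where 47 of 47722 probe sets were called. Between the diets at 63 dpn TANK was higher in H than in L by 0.67 (SE 0.18, q = 0.441) and higher in H than in M by 0.68 (SE 0.19, q = 0.397). The L minus M difference was 0.01 (SE 0.20). No member and 0% of all tested probe sets were called in any of these 3 comparisons at 63 dpn. The groups also differed in where they started. At 28 dpn the mean of TANK was 6.96 ± 0.34 (SD, n = 7) in pigs later fed H, against 7.33 ± 0.17 (n = 6) in those later fed L and 7.31 ± 0.13 (n = 6) in those later fed M (q = 0.282). Pig 3 was the lowest of the H pigs, at 6.23, and without its 28 dpn array the change of TANK in H was 0.74 and still called. Among the diets at 28 dpn 0% of the tested probe sets, and no member, were called. Ordered by group mean, H at 63 dpn came first with 7.80 ± 0.49 (SD, n = 7), followed by L and M at 28 dpn, M at 63 dpn with 7.13 ± 0.36 (n = 5), L at 63 dpn with 7.11 ± 0.29 (n = 6), and H at 28 dpn. Every pair of neighbours in this order overlapped in range.

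**Figure D1:**
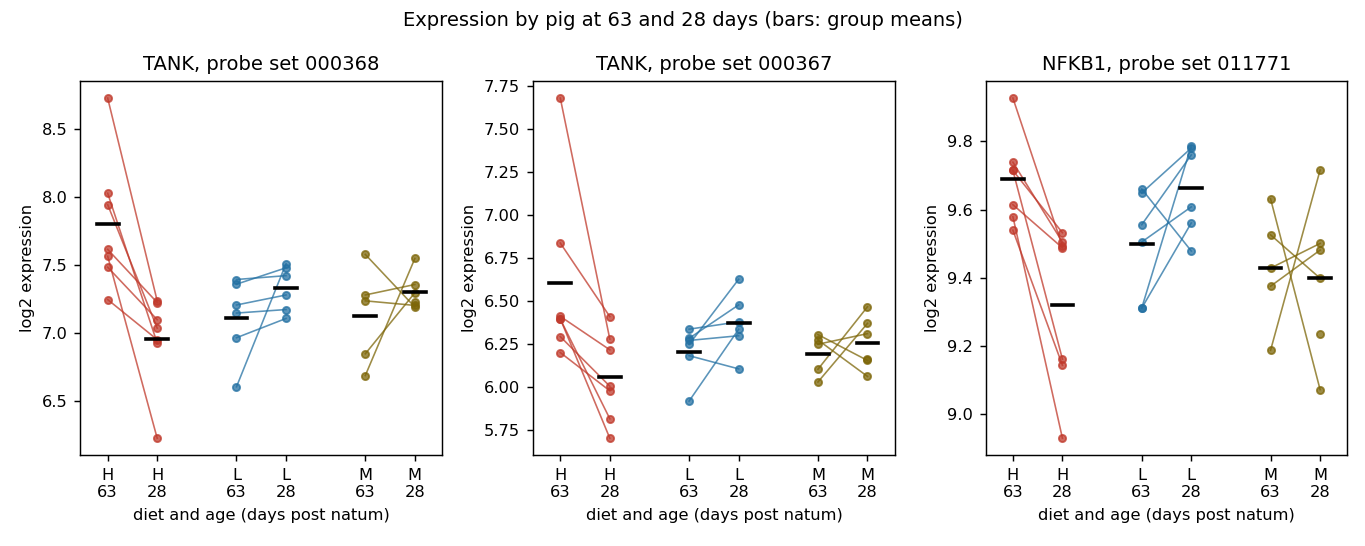
Log2 expression of both TANK probe sets that passed the filter and of NFKB1 (vertical axes) in each pig at 63 and 28 dpn, by diet (horizontal axis); lines join the arrays of 1 pig and black bars are group means. For TANK 000368 and NFKB1 all 7 H values at 63 dpn lie above all H values at 28 dpn, while TANK 000368 is lower at 63 dpn in 6 of 6 L pigs.

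The second TANK probe set, 000367, gave a smaller difference. It lay between 6.20 and 7.68 with a median of 6.40 in H, against 5.70 to 6.63 with a median of 6.28 in R, and pigs 12 and 11 were again highest in H, at 7.68 and 6.84. Only these 2 H samples lay above every R sample. The difference of H from R was 0.38 (SE 0.13, q = 0.0769) and did not pass. Within H it was higher at 63 dpn in 7 of 7 pigs, by 0.54 on average (SE 0.15, q = 0.0167), and this increase was called. That call was lost with array weights (0.36, q = 0.0567), when pig 3 at 28 dpn was left out (0.49, q = 0.0526) and when the H arrays were fitted alone (0.54, q = 0.0915). Without pig 12 at 63 dpn the probe set missed the SD limit and was not tested, and the fit without the filter gave 0.36 (q = 0.0377). Without pigs 11 and 12 it missed the limit as well, with 0.28 (q = 0.109) in the fit without the filter. In the fit with the pig as a replicate block, where H against R becomes the change within H pigs, both TANK probe sets were called, with 0.85 (q = 0.00767) and 0.54 (q = 0.0157).

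The 3 further probe sets of TANK did not follow these 2. Their means over all arrays were 5.13, 3.76 and 1.98, none passed the filter, and their differences of H from R were -0.11 (95% interval -0.27 to 0.05), -0.02 (-0.24 to 0.19) and -0.01 (-0.22 to 0.20). The residual correlation of 000368 with 000367, after removal of the 6 group means and the sex effect, was 0.70 over the 37 arrays, whereas those with the 3 others were 0.05, 0.02 and 0.16. These values are descriptions and all probe sets share the arrays. The names of 000368 and 000367 carry the suffix s, by which the manufacturer marks probe sets whose probes match several transcripts, so signal of related transcripts cannot be told apart from that of TANK.

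**Figure D2:**
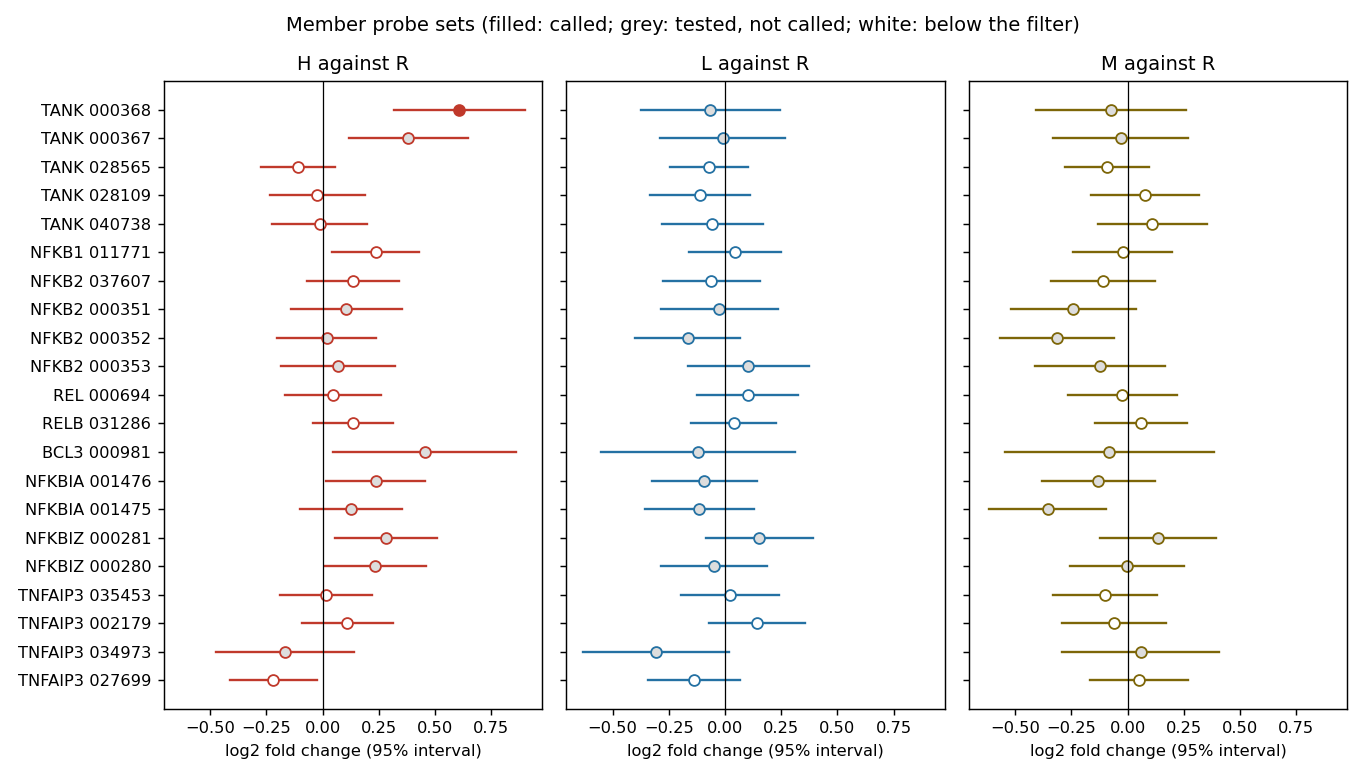
Log2 fold change with its 95% interval (horizontal axes) of the 21 probe sets in H, L and M against R, with the genes down the page; points in the panel's colour were called, grey ones were tested and not called, and white ones lay below the filter. TANK 000368 in H is the single called point, at 0.61, and the L and M intervals of both TANK probe sets that passed the filter include 0.

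Among the subunits, NFKB1 showed the clearest change. NFKB1 encodes p105, which serves as a cytoplasmic inhibitor until it is processed to the DNA-binding subunit p50. Its values in H ran between 9.54 and 9.93 with a median of 9.71, against 8.93 to 9.79 with a median of 9.49 in R. All 7 H samples lay above the R mean, but 6 R samples also lay above the lowest H sample. The difference of 0.24 (SE 0.10, q = 0.142 in the fit without the filter) was not called. Within H pigs NFKB1 was higher at 63 dpn in 7 of 7, with changes between 0.13 and 0.65. The 63 dpn values lay above all 28 dpn values, which ran between 8.93 and 9.53, a separation not counted over all probe sets. In the fit without the filter the increase of NFKB1 in H of 0.37 (SE 0.10, q = 0.0200) was called, where 4664 of 47722 probe sets were called. It kept a q value of 0.05 or less in 44 of 48 alternatives, with q between 0.0127 and 0.0710. The 4 others were a repeated quantile normalization, the fit of the H arrays alone, the fit without pigs 11 and 12 at 63 dpn and that without pig 3 at 28 dpn. In L, NFKB1 was higher in 1 and lower in 5 of 6 pigs (mean change -0.16), and in M higher in 2 and lower in 3 of 5, where the fitted difference, which includes pig 8 at 28 dpn, was 0.03. The change in H minus the mean change of L and M was 0.43 (SE 0.13, q = 0.0639). At 28 dpn the pigs later fed H had the lowest mean of NFKB1, as of TANK, at 9.32 ± 0.24 (SD, n = 7), against 9.66 ± 0.13 (n = 6) for L and 9.40 ± 0.22 (n = 6) for M.

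NFKB2 encodes p100, the precursor of p52 and partner of RELB in the alternative pathway. For its probe set 000351 the values ran between 7.12 and 7.83 in H and between 6.69 and 7.67 in R, and the groups overlapped. The differences of H from R of its 4 probe sets were 0.14, 0.11, 0.02 and 0.07, none with a P value of 0.05 or less. In M, 000352 stood 0.31 below R (SE 0.12, q = 0.903), which did not pass. Changes with age leaned in opposite directions. All 4 probe sets had a positive mean change in H, between 0.12 and 0.27, and all 4 a negative one in L and in M. The excess of the change in H over L and M ran between 0.39 and 0.45, with q values between 0.0723 and 0.126, and was not called.

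REL, the subunit prominent in lymphocytes, did not separate the diets, with 8.62 to 9.28 in H, 8.83 to 9.09 in L, and 8.30 to 9.21 in R. The M pigs lay between 8.68 and 9.18. Its difference of H from R was 0.05 (95% interval -0.16 to 0.26). RELB, the partner of p52, lay between 5.88 and 6.16 in H and between 5.45 and 6.17 in R. All 7 H samples were above the R mean, with a difference of 0.14 (95% interval -0.04 to 0.32, q = 0.307 in the fit without the filter).

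**Figure D3:**
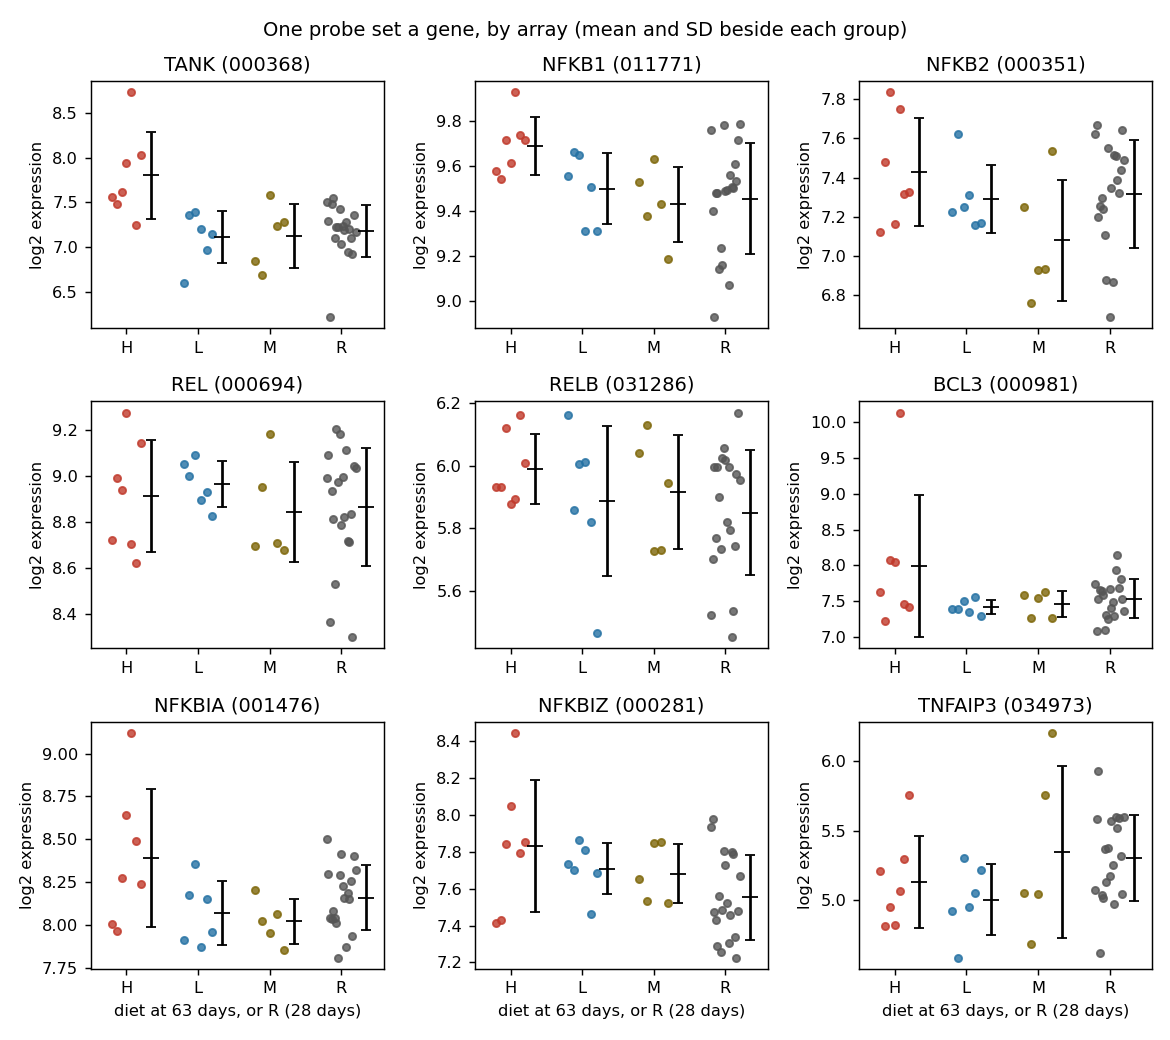
Log2 expression (vertical axes) of 1 probe set for each of the 9 genes in every array of H, L and M at 63 dpn and of R at 28 dpn (horizontal axes); points are arrays, and the bar beside each group gives mean and SD. For TANK 5 of the 7 H points lie above every R point, and in BCL3 a single H array at 10.12 stands apart.

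No inhibitor of the member list was called in H against R. BCL3, an atypical inhibitor that can also activate transcription with p50 or p52, had values between 7.22 and 10.12 in H with a median of 7.63, against 7.08 to 8.14 with a median of 7.54 in R. Pig 12 alone lay at 10.12, followed by 8.07 in pig 9, and 17 of the 19 R samples lay above the lowest H sample. The difference of 0.45 (SE 0.20, q = 0.140) became 0.10 when the array of pig 12 was left out.

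NFKBIA, the classical inhibitor of the RELA dimers, ran between 7.97 and 9.12 in H with a median of 8.27, against 7.81 to 8.50 with a median of 8.16 in R. Pigs 12 and 11 lay above every R sample, at 9.12 and 8.64, and pigs 6 and 3 below the R mean, at 7.97 and 8.01. The difference of 001476 was 0.24 (SE 0.11, q = 0.151), and that of 001475, whose name also carries the suffix for shared probes, 0.13 (SE 0.11, q = 0.364). In M, both probe sets were lower at 63 dpn in 5 of 5 pigs. For 001475 the M values of 6.22 to 6.45 lay below every R sample, of which the lowest was 6.47, with a difference of M from R of -0.36 (SE 0.13, q = 0.821). This did not pass the adjustment, and how many of all probe sets separated M from R in this way was not counted.

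NFKBIZ, a nuclear inhibitor family member needed for some cytokine genes, had differences of H from R of 0.28 (SE 0.11, q = 0.108) and 0.24 (SE 0.11, q = 0.157) on its 2 probe sets. For 000281 the H values ran between 7.42 and 8.44 and the R values between 7.23 and 7.98. In L and M the differences of this probe set from R were 0.15 and 0.14. TNFAIP3, the ubiquitin editing enzyme A20 that shuts off signals to IKK, was uneven over its 4 probe sets. Their differences of H from R were 0.01, 0.11, -0.17 and -0.22, the last, of 027699, with a 95% interval of -0.41 to -0.03 (q = 0.165 in the fit without the filter). The probe set 027699 was lower at 63 dpn in 7 of 7 H pigs, with a mean change of -0.26 (q = 0.0919 in the same fit). None was called.

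Over all 21 probe sets the median difference of H from R was 0.11, with 16 positive, while the median over all 47722 probe sets in the fit without the filter was -0.02 with 44.9% positive. The median of the 21 was -0.06 in L and -0.06 in M. For the fitted differences between both ages the medians were 0.20 in H, -0.12 in L and -0.07 in M, with 17, 3 and 8 of the 21 positive. The M fit includes pig 8 at 28 dpn. Over all 47722 probe sets the medians were -0.03, 0.004 and -0.002, with 44.8%, 51.0% and 49.5% positive. Probe sets of 1 gene share their transcript, so these counts are not counts of independent measurements.

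The other genes of the pathway were read from lists that were written with earlier results of these data known. Of the other inhibitors, 3 of 7 were tested, 3 had a positive difference of H from R and 1 rose, where 2.09% of all tested probe sets were called and 45.5% had a positive difference. This was NFKBID, a nuclear inhibitor protein, with 6.13 ± 0.31 (SD, n = 7) in H and 5.78 ± 0.15 (n = 19) in R, a difference of 0.36 (SE 0.10, q = 0.0475). NFKBIE, a cytoplasmic inhibitor, differed by 0.30 (q = 0.160) and NFKBIL1 by 0.06. Among the kinases and adaptors around IKK 7 of 9 tested genes had a positive difference and 1 rose, against the same 2.09% and 45.5%. This was TAB3, which links the kinase TAK1 to ubiquitin chains. It was higher in H than in R by 0.44 (SE 0.13, q = 0.0434), but also by 0.42 in L and 0.30 in M, where it was not called. IKBKB, the catalytic subunit that marks NFKBIA, differed by 0.30 (q = 0.0775) between H and R and rose by 0.36 within H pigs (q = 0.0416). RIPK1, an adaptor below the TNF receptor, differed by 0.24 (q = 0.130) and MAP3K14, the kinase of the alternative pathway, by 0.28 (q = 0.116).

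Of the partners of TANK, 5 of 10 were tested and none was called in H against R. TBK1, the kinase that TANK binds, differed by 0.28 (SE 0.15, q = 0.192) and rose within H pigs by 0.52 (q = 0.0274). The factor IRF3, a substrate of TBK1, differed by 0.27 (q = 0.127), TRAF3 by 0.14 and IKBKE by -0.20. Of the ubiquitin ligases and editors 10 of 17 were tested and none was called against R, with a list median of 0.01. TAX1BP1, which helps TNFAIP3 to act, differed by -0.45 (q = 0.0783) and fell within H pigs by 0.52 (q = 0.0460). TRAF5 differed by 0.27 (q = 0.175) and ITCH, a ubiquitin ligase that acts with TNFAIP3, by -0.24 (q = 0.225). None of the 4 tested genes of the CARD, BCL10 and MALT1 complex and its kinases was called, and their median was -0.08.

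Among the genes that NF-kB is known to induce, 23 of 26 were tested, 19 had a positive difference of H from R and 1 rose, against 45.5% positive and 2.09% called over all tested probe sets. This was IL1B, a cytokine of monocytes, with 6.87 ± 0.41 (SD, n = 7) in H and 6.31 ± 0.37 (n = 19) in R, higher by 0.56 (SE 0.15, q = 0.0383). The differences of L and M from R were 0.00 and 0.01. CD80, a costimulatory molecule, differed by 0.41 (q = 0.0528), and BCL2L1, a survival gene, by -0.60 (q = 0.0824). IER3, an early response gene, differed by -0.37 (q = 0.122). The median of the list was 0.23 in H, -0.07 in L and -0.03 in M. The median of all tested probe sets was -0.02 in H, -0.01 in L and 0.00 in M. Within H pigs 2 target genes rose and 2 fell, where 12.5% of all tested probe sets were called. CD80 rose by 0.65 (q = 0.00450), IL1B rose by 0.67 (q = 0.0165), BCL2L1 fell by 0.96 (q = 0.00828) and IER3 fell by 0.49 (q = 0.0489).

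The calls of these other genes were recomputed without pigs 11 and 12 of H at 63 dpn, an alternative chosen after seeing the data. None of the calls of NFKBID, TAB3 and IL1B in H against R held without pig 11 alone (q between 0.0654 and 0.0684), without pig 12 alone (q between 0.173 and 0.212) or without both (q between 0.232 and 0.285). Without pig 12, and without both, NFKBID missed the filter, and its q value there is from the fit without it. NFKBID and TAB3 were also called within H pigs with all arrays. Without both pigs NFKBID missed the filter, and its difference between both ages of H was 0.36 (q = 0.0499) in the fit without it. Within H pigs, TAB3 (0.60, q = 0.0300), CD80 (0.53, q = 0.0331) and BCL2L1 (-0.84, q = 0.0484) were still called without both pigs. IL1B (0.52, q = 0.0905), IER3 (-0.47, q = 0.138), TBK1 (0.40, q = 0.147) and TAX1BP1 (-0.35, q = 0.185) were not, nor was IKBKB (0.21, q = 0.206), which missed the filter there. The calls of IER3, TBK1 and IKBKB were also lost without either pig alone, and those of IL1B and TAX1BP1 without pig 12 alone.

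**Figure D4:**
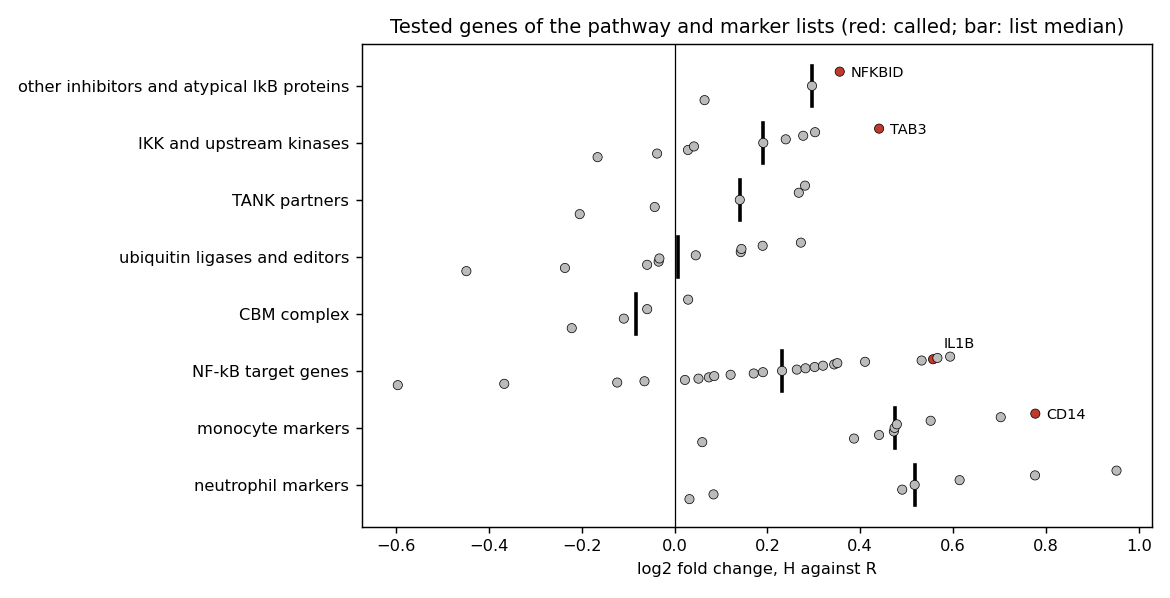
Log2 fold change in H against R (horizontal axis) of each tested gene in 6 pathway lists and 2 cell type marker lists; red points were called and black bars are list medians. The called genes are NFKBID, TAB3, IL1B and CD14, and the medians of the marker lists for monocytes and neutrophils are 0.47 and 0.52.

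PBMC are a mixture, so more cells of a type and more RNA per cell cannot be told apart. The measured monocyte and neutrophil markers had positive differences of H from R, of which 1 was called. Of 12 monocyte markers 9 were measured, the defining markers CSF1R and CD68 having no probe set in the annotation used here, and all 9 had a positive difference of H from R with a median of 0.47. CD14 was the 1 that was called (0.78, q = 0.0478). Its difference was 0.75 (q = 0.0865) without pig 11, 0.44 (q = 0.227) without pig 12 and 0.36 (q = 0.358) without both. Over all tested probe sets, 45.5% had a positive difference of H from R and 2.09% were called. The mean log2 level of the 9 monocyte markers ran between 8.57 and 10.32 in H, against 8.52 to 8.82 in L, 8.41 to 9.25 in M and 7.86 to 9.38 in R. Pigs 12 and 11 were highest in H, at 10.32 and 9.40. Of 11 neutrophil markers 7 were measured and all 7 had a positive difference with a median of 0.52, none called. Their mean level ran between 7.21 and 9.20 in H, against 7.09 to 7.71 in L, 7.18 to 7.66 in M and 6.74 to 7.87 in R. The defining granule genes MPO and LTF differed by 0.03 and 0.08, and ELANE, CAMP, MMP8 and FCGR3B had no probe set in the annotation used here. Of the other lists, NK cell markers had a median of 0.41, T cell markers of 0.16, B cell markers of 0.12, erythroid markers of -0.12 and platelet markers of -0.62, none of them with a call and all with mean levels that overlapped between H and R. Within H pigs, where TANK and NFKB1 were higher at 63 dpn, the median change was 0.60 for monocyte markers, of which 4 of 9 rose, 0.51 for neutrophil markers with none called, and 0.50 for NK cell markers, of which 1 of 8 rose. It was 0.34 for B cell markers, of which 2 of 6 rose, and 0.14 for T cell markers with none called. Erythroid markers had a median change of -0.29, with 1 of 4 fallen, and platelet markers of -0.47 with none called. In this comparison 12.5% of all tested probe sets were called. Without pigs 11 and 12, the B cell marker PAX5 (0.64, q = 0.0395) was the only one of these marker calls that held. The other marker calls within H pigs were lost, with q between 0.0609 and 0.319.

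The members followed these markers to different degrees. After removal of group means and sex, the correlation with the monocyte level over the 37 arrays was 0.75 for NFKBIA, 0.72 for BCL3, 0.71 for NFKBIZ, 0.58 for NFKB1, 0.48 for TANK 000368 and 0.67 for TANK 000367. It was -0.16 for REL and -0.15 for RELB. The 4 probe sets of NFKB2 lay between 0.23 and 0.64, and those of TNFAIP3 between -0.18 and 0.51. The second probe set of NFKBIZ had 0.53, and the 3 TANK probe sets below the filter had -0.28, 0.03 and -0.10. The correlation with the neutrophil level was 0.78 for BCL3 and 0.67 for TANK 000367, but 0.38 for TANK 000368, 0.18 for NFKB1 and -0.39 for REL. NFKB1 had its highest correlation with the B cell level, 0.64, and one of 0.56 with the NK cell level. With the erythroid level it was -0.48 for TANK 000368 and -0.61 for TANK 000367. These are descriptions, the points share arrays and pigs, and the part of the marker levels in the differences of the members was not tested. Among the H samples, pig 18 had a TANK value of 8.03 at a monocyte level of 8.68, close to the R median of 8.70, whereas pig 12 was highest in both. At 63 dpn pig 12 stood apart from all other arrays, with a monocyte level of 10.32 before 9.40 in pig 11. Its neutrophil level was 9.20, before 7.97 in pig 11. The correlations were not recomputed without pig 12, so its share in them is not known.

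**Figure D5:**
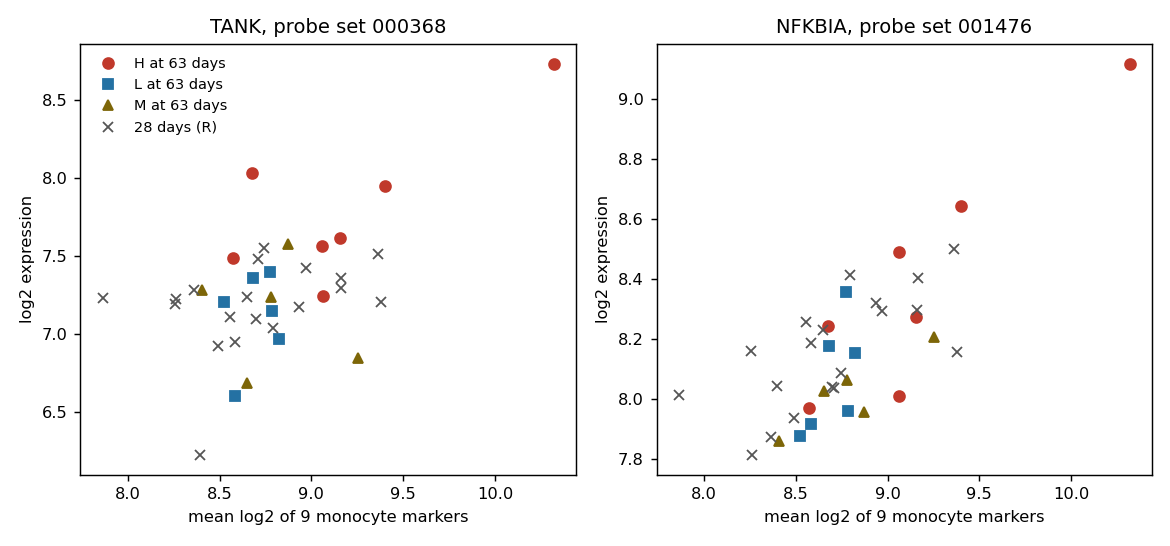
Log2 expression of TANK 000368 and NFKBIA 001476 (vertical axes) against the mean log2 level of the 9 measured monocyte markers (horizontal axes) in the 37 arrays, by diet at 63 dpn and R at 28 dpn. Pig 12 of the H group is at the upper right in both panels, at a marker level of 10.32, and the H pig with a TANK value of 8.03 has a marker level of 8.68.

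By residual pattern over the 37 arrays, the genes most like TANK were GK, RNF170, KLHL2, CD46 and FAM49B, with correlations between 0.77 and 0.79. Of these, KLHL2 was called in H against R (0.61, q = 0.0376). It was not called without pig 11 (0.54, q = 0.0870), without pig 12 (0.39, q = 0.189) or without both (0.28, q = 0.355). GK (0.53, q = 0.0684), RNF170 (0.35, q = 0.0772), CD46 (0.41, q = 0.106) and FAM49B (0.22, q = 0.168) were not called in H against R with all arrays. The genes most like NFKBIA were IGSF6, ATP6AP2, MIDN, TAP1 and RP2, with correlations between 0.82 and 0.84, none of them called in H against R. Within H pigs, where 12.5% of all tested probe sets were called, GK, RNF170, KLHL2, CD46, ATP6AP2 and MIDN were called. None of these calls held without pigs 11 and 12 at 63 dpn (q between 0.0705 and 0.284). RNF170 and ATP6AP2 missed the filter there, and their q values are from the fit without it.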

How the data were processed

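RNA of PBMC was hybridised to a porcine Affymetrix array with 47845 probe sets, of which 123 controls were left out. The authors normalized the scans by RMA and deposited log2 values. The submitters' processing notes name GCOS 1.1.1. Background of single arrays is not recoverable from these values, so the number of arrays limits the precision. Diet, age, sex and pig number came from the labels, which give no sire. The genome build of the probes is not given in the sources used here, and no coordinates are printed.

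Differences were tested with limma 3.58.1 in R 4.3.3 (lmFit and eBayes), with R, L, M and H and sex as factors for comparisons with R and between diets at 63 dpn. Changes with age used 6 groups of diet and age. The filter was that of the study (SD above 0.23, mean above 2.5). Storey's q was computed with lambda from 0.05 to 0.95. Intervals are 95% intervals of the fit. By the labels, equal pig numbers at both ages mark the same animal and so pair the arrays. Within the 18 pairs, deviations from group means correlated between -0.16 and 0.24, above 0.1 in 8 pairs. The study's model has no pig term, so the pig was a block only among the alternatives. A gene in a pathway list stands for its highest probe set among those tested. The rule named all members, at most 4 genes per pathway list by lowest P (H against R), and the 5 genes most like TANK and NFKBIA. The marker genes CD14, PAX5, MPO and LTF lie outside this rule and were picked with their values in view. Members and lists were chosen with earlier results of these data known. The fit was tested on simulated data. In H against R it found 28% of true differences of 0.5 on the log2 scale and 87% of those of 1. A missing call thus does not show equal levels. The simulated probe sets varied independently, so shifts shared within an array were not simulated. Alternatives were other filters, adjustment, variance, covariates, array weights, blocks, normalizations, subsets of groups, and arrays left out.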

Additional observations from a re-analysis of the deposited data

Results flagged for a closer look

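Of 54 groups of arrays examined (9 genes in 6 groups), 4 had a pig far from the others, where chance gives about 1 in 20. TANK lay at 6.23 in pig 3 of H at 28 dpn, with the next pig at 6.93. NFKB2 lay at 7.62 in pig 4 of L at 63 dpn, with the next at 7.31, and RELB at 5.45 in pig 15 of H at 28 dpn, with the next at 5.82. BCL3 lay at 10.12 in pig 12 of H at 63 dpn, with the next at 8.07.

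TANK was higher at 63 dpn in 7 of 7 H pigs and lower in 6 of 6 L pigs. Apart from pig 1 at -0.91, the L changes were small, between -0.14 and -0.03, and the change in L was not called. The mean change in H exceeded that in L by 1.06 (limma, q = 0.0864), which did not pass the threshold, and no probe set passed it.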

How the results depend on the processing

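Member results were recomputed with single arrays left out (36 or 37 fits) and under 10 to 13 other alternatives, since some probe sets missed the filter in some fits. In H against R 1 member was called, with 0 to 2 when single arrays were left out, 0 with array weights, 0 without pigs 11 and 12 of H at 63 dpn together, 2 with arrays centred on their medians and 2 with the replicate block of pigs as fixed effects. In H against its own 28 dpn 2 were called, with 1 to 4 when single arrays were left out, 3 without the filter, 1 with array weights, 1 without pigs 11 and 12 together and 1 in the fit of the H arrays alone. For the difference in change between H and the other diets 0 were called, with 0 to 4 when single arrays were left out, 1 each without the filter, with unmoderated variances, without the sex term and with array weights, and 2 with arrays centred on their medians. The random replicate block left all counts of called members as they were, and no member was called in any other comparison under any alternative run. The fixed block gave no value for differences between diets at 1 age. Over all probe sets, 588 called in H against R became 15 without pig 12, 90 without pig 11, 4 without both, 226 with Benjamini-Hochberg adjustment and 2935 with the fixed block. Those in H against its own 28 dpn, 3512, ran between 712 and 4912, and those of the difference in change, 0, between 0 and 2226. In L against R the count of 7 ran between 1 and 175. With 1 probe set per gene, REL was the gene whose difference of H from R changed sign, between -0.04 and 0.25 over the alternatives. Depth per array cannot be read from these values. The causes of these shifts were not tested.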
